A study of Mus musculus with 4 samples.

Results

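Ifitm1, Ifitm2 and Ifitm3 are 3 genes of the Ifitm family, also called Fragilis, and were chosen by name, with every probe that the array carried for them. They made up 3 of the 18322 named genes on the array and 4 of its 41153 probes: 1 probe for Ifitm1, 2 for Ifitm2 and 1 for Ifitm3. Ifitm genes code for small membrane proteins that are induced by interferon and hinder the entry of viruses into cells. In the mouse embryo Ifitm3, the gene first named Fragilis, marks the cells of the epiblast that gain germ cell competence under BMP signalling, and primordial germ cells, from which eggs and sperm later derive, express family members afterwards. The family is not specific to germ cells, since blood vessel and immune cells express it too, and mice lacking the gene cluster are viable and fertile.

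The series asked what loss of HP1γ does to primordial germ cells. HP1γ, the product of Cbx3, is a chromatin protein that binds methylated histone H3. The samples were mVenus-positive cells sorted from mouse genital ridges at embryonic day 11.5, either wild-type; Blimp1-mVenus tg or HP1γ-/-; Blimp1-mVenus tg, so both groups carried the Blimp1-mVenus transgene, a reporter for the germ cell regulator Blimp1 (Prdm1). The mutant allele came from a modified gene trap. Each genotype was represented by 2 independent RNA pools of 5 or 6 embryos, with about 500 to 3500 sorted cells per embryo, and each pool was measured on 1 one-colour Agilent array of 1 shared slide. A single mutant allele and a single stage were studied, and cells that were mVenus-positive without being germ cells would have been sorted as well.

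Levels are given as log2 signal, which is log2 of the background-subtracted intensity minus the log2 of the 75th percentile of that array, so that 0 is a probe at the 75th percentile. The 75th percentile was 188 on wild-type replicate 1 and 219 on wild-type replicate 2, against 125 on HP1γ-null replicate 1 and 291 on HP1γ-null replicate 2, in intensity units. In that order of arrays Cbx3 stood at 4.80, 5.07, -1.95 and -1.59 with probe A_51_P160328. This was 104-fold lower in the null arrays (limma, adjusted p = 0.044), and the second Cbx3 probe, A_51_P117162, was 225-fold lower (limma, adjusted p = 0.099). The place of these probes relative to the gene trap was not known from the sources used here. Markers of the labelled cell type did not hold on every array. Of the 14 germ cell markers with a probe, 13, 13 and 14 were well above background on the wild-type arrays and on null replicate 1, but only 5 on null replicate 2. There Dppa3, a marker of primordial germ cells, stood at -7.04 against 1.60, -0.26 and 3.58 on the other 3 arrays, Pou5f1, the pluripotency factor Oct4, at -5.33 against -1.73, -3.34 and 0.92, and Ddx4, the germ cell RNA helicase, at -6.73 against 0.19, -1.32 and 0.66. The Ifitm differences and the list medians are therefore also given without null replicate 2. Cells of other kinds were measured as well, with Cdh5 of endothelium at 3.77 to 4.52, Ptprc of leukocytes at 2.64 to 2.97 and Col1a1 of stroma at 0.53 to 4.13 over the arrays.

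The 3 genes lie close together on chromosome 7, with Ifitm2 and Ifitm3 on the minus strand and Ifitm1 on the plus strand between them. Their promoters are shown because the genes are known to respond to interferon and their differences ran the same way. Each line gives the 100 bases before and the 30 bases from the start of transcription in RefSeq (GRCm38.p6), 5′ to 3′ on the strand of the gene. The positions are chr7:140967976-140968105 for Ifitm1, chr7:140955932-140956061 for Ifitm2 and chr7:141010715-141010844 for Ifitm3. Capitals mark matches to the core of the interferon-stimulated response element, GAAANNGAAA, a sequence found in promoters of interferon-induced genes.
Ifitm1: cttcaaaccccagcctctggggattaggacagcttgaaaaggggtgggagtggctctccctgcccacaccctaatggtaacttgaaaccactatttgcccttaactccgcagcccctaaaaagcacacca
Ifitm2: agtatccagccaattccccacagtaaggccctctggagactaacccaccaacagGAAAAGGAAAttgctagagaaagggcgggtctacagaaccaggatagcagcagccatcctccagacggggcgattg
Ifitm3: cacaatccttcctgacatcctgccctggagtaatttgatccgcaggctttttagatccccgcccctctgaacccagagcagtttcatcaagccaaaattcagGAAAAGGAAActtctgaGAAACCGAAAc

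The search covered 300 bases per promoter, from 250 before to 50 after the start, on both strands. Ifitm3 held 2 matches, at bases 3 to 12 and 20 to 29 counted from the start of transcription as base 1, and Ifitm2 held 1, at bases -46 to -37. The Ifitm1 window held none, which says only that these letters are not in this window. Of all 32851 promoter windows of the same length, 3.44% held a match and 0.225% held 2 or more. Among the 32 listed interferon-stimulated genes with a promoter in the table, 14 (43.8%) had a match, against 3.99% of all 27025 genes. The Ifitm windows held 4 or 5 CpG dinucleotides each, and the median over all windows was 7.

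All 4 Ifitm probes were higher on both HP1γ-null arrays than on both wild-type arrays, though under scaling to spiked-in control RNA only the Ifitm1 probe was. None of the 4 differences passed the test after adjustment over all probes. The differences were 1.35 for Ifitm1 (2.56-fold), 0.50 for Ifitm2 with its brighter probe (1.41-fold), 0.61 for Ifitm2 with its second probe (1.53-fold) and 0.56 for Ifitm3 (1.47-fold), as log2 differences of null minus wild type. The test was limma's moderated test on the 22440 probes that were well above background on each array of the wild-type group, the null group or both, with Benjamini-Hochberg adjustment over all of them. Only 2 of these probes passed at an adjusted p of 0.05, which is 0.00891% of those tested. Arrays of the null group lay above those of the wild type without overlap for 15.1% of the tested probes and below them for 23.0%. All 4 Ifitm probes were well above background on all 4 arrays, and none was saturated or marked as an outlier. In bulk RNA of sorted cells a smaller share of expressing cells and less RNA per cell cannot be told apart, and the same holds for higher values.

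**Figure D1:**
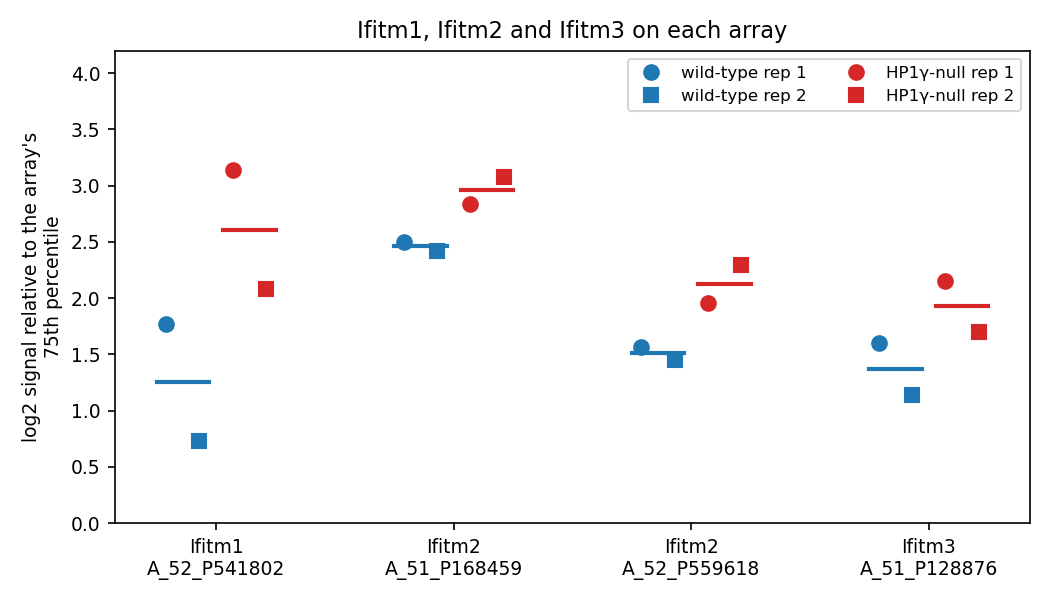
Log2 signal relative to the array's 75th percentile for each Ifitm probe on each of the 4 arrays, wild type in blue and HP1γ-null in red, with circles for replicate 1, squares for replicate 2 and a horizontal line at each group mean (n = 2). Red points lie above blue points for every probe on this scale, but for Ifitm1 alone under spiked-in control RNA. Ifitm1 spans 0.73 to 3.14, and levels of different probes are not comparable with each other.

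Ifitm3, the Fragilis gene itself, gave wild-type intensities of 569 and 483 and null intensities of 555 and 944 before scaling. Relative to the 75th percentile the signals were 1.60 and 1.14 in the wild type and 2.16 and 1.70 in the null. The unscaled intensities overlapped between genotypes and the scaled ones did not, since null replicate 1 was the dimmest array. The group means were 1.37 ± 0.32 in the wild type and 1.93 ± 0.32 in the null (SD, n = 2). The difference of 0.56 had an SE of 0.29 and a 95% interval from -0.21 to 1.32 (limma, adjusted p = 0.76). The lower null array stood 0.10 above the higher wild-type array, less than the gap of 0.46 between replicates of either genotype. Without null replicate 2 the difference was 0.78, and without null replicate 1 it was 0.33, as it also was without wild-type replicate 2.

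Ifitm1, a close relative of Ifitm3 that acts at the cell surface, showed the largest difference of the family's 4 probes. Its intensities were 642 and 364 in the wild type, and in the null 1095 and 1230. The log2 signals were 1.77 and 0.73 in the wild type and 3.14 and 2.08 in the null. Both null arrays were higher even before scaling, but replicates were far apart, by 1.04 in the wild type and 1.06 in the null. Group means were 1.25 ± 0.74 and 2.61 ± 0.75 (SD, n = 2). The difference of 1.35 had an SE of 0.53 and a 95% interval from -0.07 to 2.78 (limma, adjusted p = 0.68). It exceeded 97.1% of the tested probes' signed differences, as a description. Leaving out null replicate 2 gave 1.88 and leaving out wild-type replicate 1 gave 1.87, while leaving out null replicate 1 or wild-type replicate 2 gave 0.83.

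Ifitm2, which like Ifitm3 resides mainly in endosomal membranes, was the most even of the family across replicates. With probe A_51_P168459 its wild-type intensities were 1061 and 1175 and its null intensities 893 and 2447. The log2 signals were 2.50 and 2.42 in the wild type and 2.84 and 3.07 in the null, replicate 1 first. Null replicate 1 was thus the lowest array before scaling and lay above both wild-type arrays after it. Group means were 2.46 ± 0.05 and 2.96 ± 0.16 (SD, n = 2), and the difference of 0.50 had an SE of 0.21 and a 95% interval from -0.05 to 1.05 (limma, adjusted p = 0.69). The second probe, A_52_P559618, gave log2 signals of 1.57, 1.45, 1.96 and 2.29. Its difference of 0.61 had an SE of 0.22 and a 95% interval from 0.02 to 1.21. This was the only one of the 4 intervals that did not reach 0 (limma, unadjusted p = 0.046, adjusted p = 0.65). Over the whole array, 1685 of the 22440 tested probes had an unadjusted p under 0.05 (limma). The array-by-array gap between the Ifitm2 probes varied by 0.19 over the 4 arrays, less than the difference between genotypes with either. Without null replicate 2 the first probe's difference was 0.38. Under spiked-in control RNA this probe's null arrays stood at 0.91 and 1.67, further apart than those of Ifitm3 at 0.22 and 0.30.

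**Figure D2:**
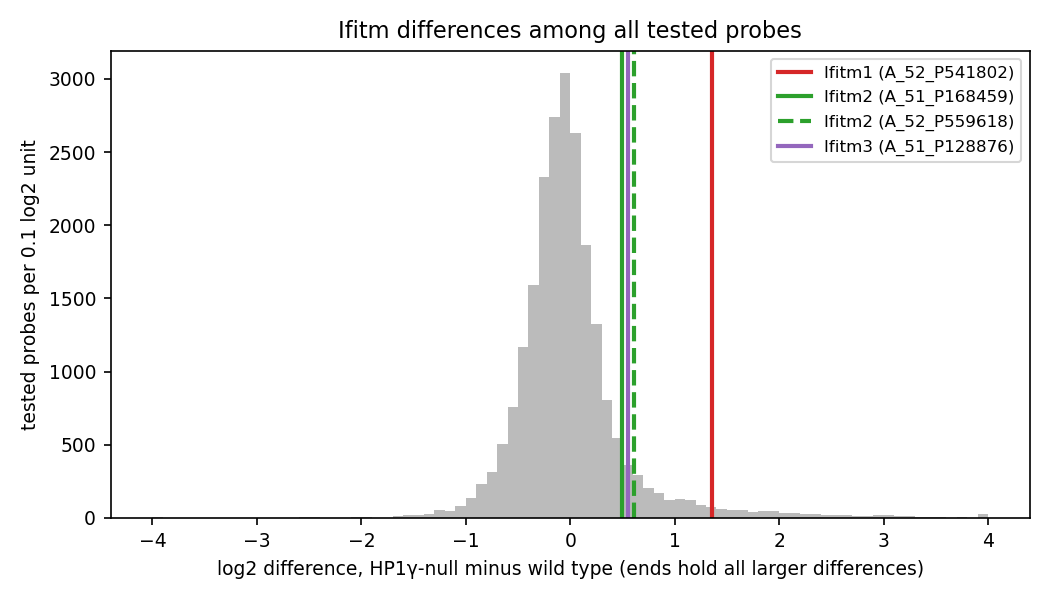
Distribution of the log2 difference, HP1γ-null minus wild type, over the 22440 tested probes in bins of 0.1, with vertical lines at the 4 Ifitm probes. The median of all probes is -0.06, and the Ifitm lines at 0.50, 0.56, 0.61 and 1.35 lie in the right-hand flank, beyond 90.1% to 97.1% of the probes.

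The background against which these values stand was shifted slightly to the other side. The median difference of all tested probes was -0.06, with 9355 higher and 13085 lower in the null, and its quartiles were -0.27 and 0.16. The choice of scale mattered for Ifitm2 and Ifitm3. When arrays were scaled to 7 probes for the control RNA spiked into each sample, the median of all probes moved to -0.61. The Ifitm differences then became 0.81 for Ifitm1, -0.05 for Ifitm2 and 0.01 for Ifitm3, and only the Ifitm1 probe still separated the genotypes without overlap. Relative to the median of all probes the differences were 1.42, 0.56 and 0.62 under this scale and under the 75th percentile alike. That sameness follows from the arithmetic, since both scales subtract a single value per array, and is no separate support. Under the quantile, median, normexp and deposited-value settings all 4 probes separated the genotypes.

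**Figure D3:**
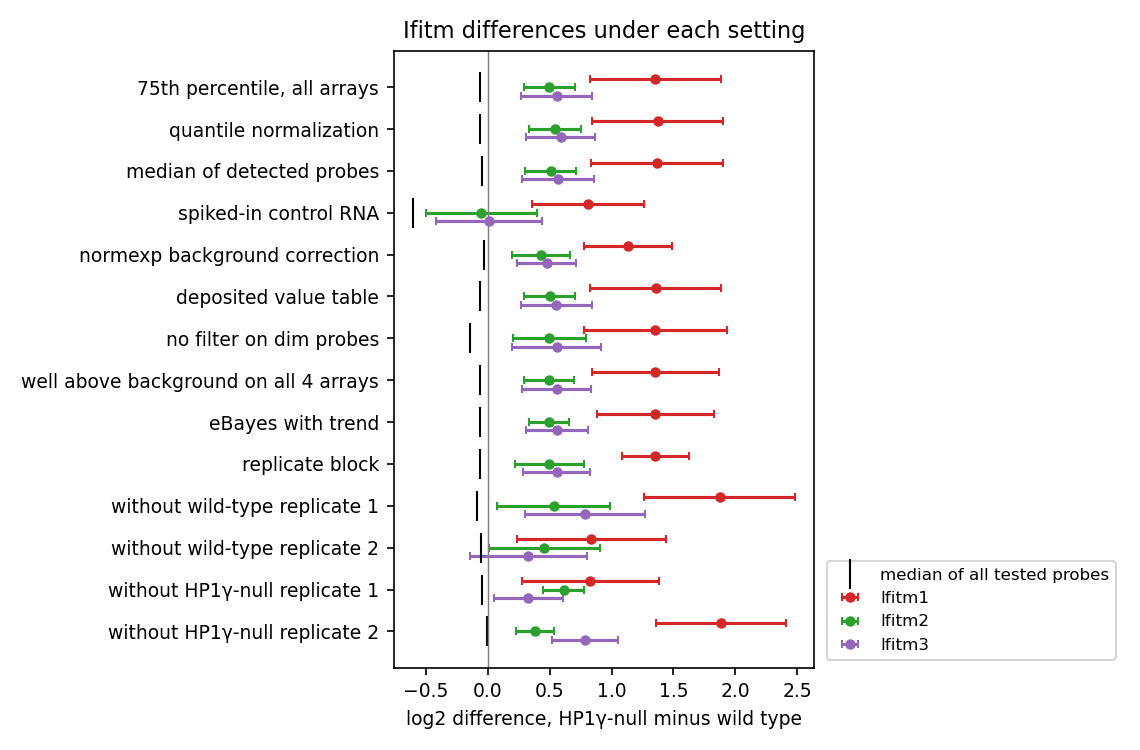
Log2 difference with its standard error (bars) for the main probe of each Ifitm gene under every setting and with each array left out, with a black tick at the median of all tested probes. Under spiked-in control RNA the tick moves to -0.61 and the Ifitm2 and Ifitm3 points to -0.05 and 0.01, and Ifitm1 stays between 0.81 and 1.88 throughout.

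The order of the arrays was compared between the family members as a description. Ifitm1 and Ifitm3 had the same order, lowest on wild-type replicate 2, then wild-type replicate 1, null replicate 2 and null replicate 1. Ifitm2 instead was highest on null replicate 2, with both probes. Under spiked-in control RNA Ifitm1 kept its order, but Ifitm3 was highest on wild-type replicate 1 (0.33), with null replicate 1 at 0.22. With 2 arrays per group, neighbours in these orders within a genotype are the replicates themselves. Their gap is therefore the replicate spread by definition, and the order within a genotype cannot be checked against it. Compared within arrays, where scaling cancels, the difference between genotypes was 0.86 larger for Ifitm1 than for Ifitm2 (SE 0.80; two-sided exact permutation p = 0.667) and 0.80 larger for Ifitm1 than for Ifitm3 (SE 0.42; exact permutation p = 0.333). Between Ifitm2 and Ifitm3 it was -0.06 (SE 0.39; exact permutation p = 1). The smallest p that 2 arrays against 2 allow is 0.333, and adjusted over the 3 pairs each p was 1, so the design could not show that the members differ. Leaving out arrays in turn moved the Ifitm1 and Ifitm2 contrast between 0.22, without null replicate 1, and 1.50, without null replicate 2. That of Ifitm1 and Ifitm3 lay between 0.50 and 1.10.

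Likeness of pattern was measured as the root mean square distance between log2 signals over the 4 arrays, after each gene's own mean was removed, over 11042 named genes. Nearest to Ifitm1 were Evpl (0.088), which codes for the epithelial junction protein envoplakin, Tst (0.135), a mitochondrial sulfurtransferase, Pkp2 (0.158), the desmosomal plakophilin 2, Echdc2 (0.180) and Ank3 (0.186), which codes for the membrane scaffold ankyrin G. Nearest to Ifitm3 were Cracdl (0.026), Tpd52l1 (0.029), Arvcf (0.032), an adherens junction catenin, Phc1 (0.044), a Polycomb protein, and Dgat2 (0.050), an enzyme of triglyceride synthesis. Nearest to Ifitm2 were Amn1 (0.030), Fam229b (0.031), Gde1 (0.033), Tbl1x (0.036), a subunit of the NCoR corepressor complex, and Mettl26 (0.040). The family members were not each other's nearest genes. Ifitm3 ranked at 183 for Ifitm1 with a distance of 0.50, but Ifitm1 ranked at 7525 for Ifitm3. Ifitm2 ranked at 1072 for Ifitm3 with a distance of 0.28, and Ifitm3 at 2948 for Ifitm2. Ifitm1 and Ifitm2 lay 0.71 apart, with Ifitm2 at 1044 for Ifitm1 and Ifitm1 at 10532 for Ifitm2. With 4 points per gene, small distances are common and are given as a description.

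Among the other Ifitm genes only Ifitm6 was above background. Ifitm6, a paralogue in the same cluster, had log2 signals of -0.53, -0.52, -0.86 and -0.50, with overlapping genotypes and a difference of -0.16 (limma, adjusted p = 0.93). Ifitm5, the bone-restricted member, and Ifitm10 were not well above background on any array, and Ifitm7 had no matched probe. Of the 5 genes on either side of the Ifitm cluster, 9 had a probe and 6 were tested, with 3 higher and 3 lower in the null and a median difference of 0.00, or 0.40 over 7 tested without null replicate 2. None of the 6 passed the test. Pkp3, the plakophilin 3 gene, had log2 signals of -3.02, -4.09, -1.23 and -3.11 that overlapped between genotypes (limma, adjusted p = 0.78). It was well above background on only 1 wild-type array and entered the test through the null group. Pgghg was 0.28 and Sirt3, a mitochondrial deacetylase, 0.21 higher. Psmd13, a proteasome subunit, Sigirr, an inhibitory receptor of the interleukin-1 family, and Ptdss2, a phosphatidylserine synthase, gave -0.21, -0.21 and -0.23. The second probe of Ptdss2 gave 0.07, so the count of 3 higher and 3 lower rests on its brighter probe. Cox8b, B4galnt4 and Ano9 were not tested because they were well above background on only 1 null array each.

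Genes of the interferon pathway did not run in the direction of the Ifitm genes as a group. Of the 6 interferon genes with a probe, Ifnb1, Ifna2, Ifna4, Ifng, Ifnk and Ifnl3, none was well above background on any array. Of the 5 receptor genes, 4 were lower and 1 higher in the null, none past the test, with a median difference of -0.27. Ifnar1, a chain of the type I interferon receptor, had signals of 0.77, 0.63, 0.32 and 0.25 and a difference of -0.41 (limma, adjusted p = 0.74). Ifnlr1, the interferon lambda receptor and the 1 with a higher mean, did not reach the background criterion in the wild type and entered the test only through the null group, where it stood at -0.39 and -4.26 (limma, adjusted p = 0.74). The second of these values lies below the lowest detected signal of both wild-type arrays (-3.68 and -4.11), so no fold is given. Among the 11 kinases, transcription factors and inhibitors of the signal, 4 had a higher and 7 a lower mean in the null, none past the test, at a median of -0.09. The smallest unadjusted p values were those of Irf2, -0.54 (limma, adjusted p = 0.69), and Stat2, a transcription factor of the pathway, -0.38 (limma, adjusted p = 0.78). Without null replicate 2 the medians were -0.21 for the receptors and -0.23 for these signal transducers.

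The interferon-stimulated genes, 40 listed without the Ifitm family, were split evenly. Of 35 tested, 17 were higher and 18 lower in the null, with a median difference of -0.01 against -0.06 over all probes, and none passed the test. Genotypes did not overlap for 5 of the 35 (14.3%) in the higher direction and 4 (11.4%) in the lower, beside 15.1% and 23.0% of all tested probes. Leaving out each array in turn left 16 to 20 genes higher and a median between -0.03 and 0.04. Ifi27, which codes for a mitochondrial and nuclear envelope protein, had the smallest unadjusted p, 0.018, with signals of 3.00, 2.96, 3.71 and 3.64 and a difference of 0.69 (limma, adjusted p = 0.55). Both of its null arrays stood above both wild-type arrays. Trim25, a ubiquitin ligase of the RIG-I pathway, came next with a difference of -0.61 and signals of 2.40, 2.64, 1.93 and 1.89 (limma, adjusted p = 0.63). Isg15, whose product is a ubiquitin-like modifier, Ifit1, a sensor of foreign RNA, and Bst2, the virion tether tetherin, gave overlapping genotypes and differences of 0.02, -0.13 and 0.13. These 3 were picked after their values were seen, as widely known members of the list.

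**Figure D4:**
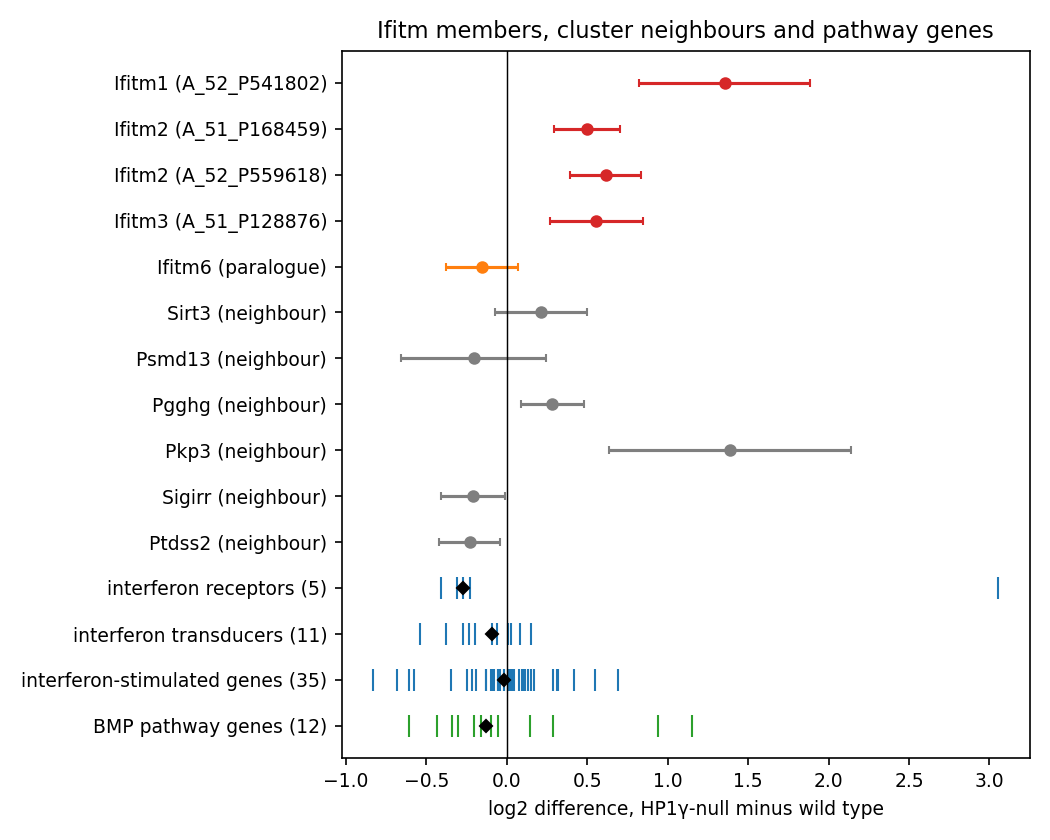
Log2 difference, HP1γ-null minus wild type, with its standard error for the 4 Ifitm probes, Ifitm6 and the tested neighbours, and below them 1 tick per tested gene of each pathway list with a diamond at the median. The tick at 3.06 (Ifnlr1) and the point of Pkp3 rest wholly or in part on wild-type signals at background. The Ifitm points lie at 0.50 to 1.35, Ifitm6 at -0.16, and the medians of the interferon and BMP lists between -0.27 and -0.01.

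BMP signalling, under which Ifitm3 first appears in the epiblast, gave a mixed picture. Of 12 tested genes, 4 were higher and 8 lower in the null with a median difference of -0.13, and none passed the test. Id2, a BMP target coding for an inhibitor of helix-loop-helix factors, had signals of 2.84, 2.77, 3.91 and 3.58 and a difference of 0.94 (limma, adjusted p = 0.50). Bmpr1a, a type I BMP receptor, had signals of -0.32, -0.65, 0.29 and 1.03 and a difference of 1.15 (limma, adjusted p = 0.57). For both genes the null arrays lay above the wild-type arrays. Of the 12, 2 (16.7%) were higher and 4 (33.3%) lower without overlap, beside 15.1% and 23.0% of all tested probes. The related genes Id1 and Id3 gave -0.16 and -0.10. Without null replicate 1, 8 of the 12 were higher, with a median of 0.16. Without null replicate 2 it was -0.34.

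Markers of the cell types in the sorted material differed between arrays beside the Ifitm genes, and their part in the Ifitm differences was not tested. The 13 tested germ cell markers had median log2 signals of -0.59 and -1.69 on the wild-type arrays, 0.92 on null replicate 1 and -5.69 on null replicate 2. Their median difference was -0.50, with 10 of 13 lower and none past the test. Of these 13, 8 were at background on null replicate 2 and entered the test only through the wild type, so this count and median were partly set by that filter. Over the markers well above background on all 4 arrays the median was -0.19, and under normexp it was -0.17. Leaving out null replicate 1 gave -2.80, and leaving out null replicate 2 gave 2.51. Fut4, which codes for the enzyme making the SSEA-1 antigen, gave -0.50 (limma, adjusted p = 0.71). Dazl, a germ cell RNA-binding protein, stood at -0.45 and -3.02 in the wild type and at -2.15 on null replicate 1, while null replicate 2 did not detect it above background (limma, adjusted p = 0.82). Prdm1, the gene of the reporter, was at 1.24, 1.27, 1.48 and 0.65, well above background throughout. On null replicate 2, where only 5 of 14 germ cell markers were well above background, all 4 Ifitm probes were, and both Ifitm2 probes had their highest signal. On this scale Ifitm1 and Ifitm3 had theirs on null replicate 1, the array with the highest germ cell marker sum. That sum was 41.4 times the 75th percentile against 8.94 to 19.3 on the other 3. Tdrd7, at 3.03, 3.09, 2.88 and 2.69, was the brightest of these markers on every array but null replicate 1. It changed little between arrays and so weighed most in the lower sums. Under spiked-in control RNA Ifitm3 was highest on wild-type replicate 1, at 0.33 against 0.22 on null replicate 1.

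The tested markers of gonadal somatic cells and coelomic epithelium, the surface layer of the genital ridge, had higher means in the null. So did the 4 Ifitm probes on this scale. Of 12 with a probe, 7 were tested, and none passed the test. All 7 had higher means in the null, 6 without overlap, beside 15.1% of all tested probes, but Krt19 and Wnt4 were well above background in the null group alone and so entered the test only through the group where they are high. The median difference was 2.14 over these 7 and 1.35 over all 12. The median was 1.80 without null replicate 2 and lay between 1.58 and 2.35 over the arrays left out in turn, and it was 1.60 both under spiked-in control RNA and under normexp. The summed signal of the 12 markers with a probe was 5.34 and 3.53 times the 75th percentile in the wild type, against 34.2 and 17.3 in the null. Krt8, a keratin of simple epithelia, had signals of -2.19, -2.02, 2.61 and 1.09, a difference of 3.96 (limma, adjusted p = 0.24), and its partner Krt18 gave 3.22 (limma, adjusted p = 0.44). Krt18 was the brightest of the 12 on every array, at 0.65, -0.03, 4.38 and 2.68, and so weighed most in the sums. Nr5a1, Gata4, Lhx9, Emx2 and Upk3b, which also mark these cells, could not be tested because at most 1 array of each genotype detected them above background. Near background, Nr5a1 and Gata4 had lower means in the null, -3.45 and -3.99 against -3.38 and -3.74. Lhx9 (-3.73 against -3.82), Emx2 (-3.34 against -4.38) and Upk3b (-4.45 against -6.12) had higher ones.

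Endothelial markers ran the other way. All 14 had lower means in the null, 13 without overlap, beside 23.0% of all tested probes lower without overlap and 13085 of 22440 with a lower mean, with a median difference of -0.64, and none past the test. Leaving out null replicate 2 gave a median of -0.85, leaving out null replicate 1 gave -0.47, and it was -1.19 under spiked-in control RNA. Their summed signal was 411 and 455 times the 75th percentile in the wild type, against 237 and 305 in the null. Robo4, an endothelial guidance receptor, gave -0.83 and Emcn, endomucin, -0.78 (limma, adjusted p = 0.54 and 0.55). Leukocyte markers were nearly level. Of 14 tested, 3 had a higher mean and 11 a lower one, at a median of -0.15, or -0.09 without null replicate 2, and sums of 372 and 435 in the wild type and 381 and 315 in the null. Stromal markers had a sum of 88.2 on null replicate 2 against 11.7 to 26.5 on the other arrays, although Postn was highest on null replicate 1. Of the 11 stromal markers tested, 10 had a higher mean in the null and 1 a lower one, none past the test. Genotypes did not overlap for 2 (18.2%) in the higher direction and 1 (9.09%) in the lower, beside 15.1% and 23.0% of all tested probes. Leaving out null replicate 2 left 3 higher and 8 lower. Their median difference was 0.44, and it moved from -1.01 without null replicate 2 to 1.77 without null replicate 1. It was 1.02 and 0.05 when wild-type replicate 1 or 2 was left out. Under spiked-in control RNA it was -0.11. Of the 9 erythroid markers with a probe, 5 were tested, with a median difference of -0.03. Leaving out null replicate 2 gave -0.75, and leaving out null replicate 1 gave 0.50 over 7 tested.

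**Figure D5:**
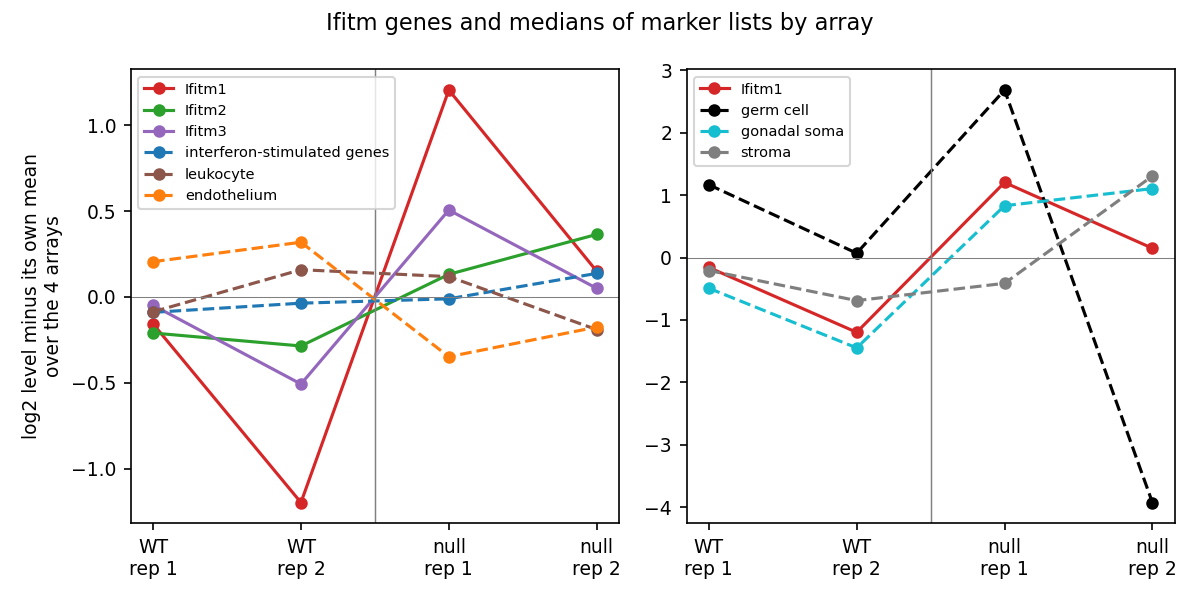
Log2 signal on each array minus its own mean over the 4 arrays, for the Ifitm genes (solid) and for the median of each marker list (dashed), on 2 scales. Lines only join the values of 1 item and give no order. Ifitm1 runs from -1.20 on wild-type replicate 2 to 1.20 on null replicate 1, the germ cell median from 2.69 on null replicate 1 to -3.93 on null replicate 2, and the interferon-stimulated median stays between -0.09 and 0.14.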

How the data were processed

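The samples were 4 RNA pools grouped by genotype. Per the labels, Cy3-labelled cRNA was made from 4 ng of RNA of each pool. Per the file headers, Agilent Feature Extraction 10.7.3.1 extracted the intensity values and subtracted the background, without scaling the arrays to each other. The series' value table, as deposited, repeats these intensity values rounded, with differences up to 0.497%. The share of spots well above background was 53.3% to 63.3%, and the number of arrays limits the precision.

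From these, log2 of the processed signal was taken and the array's 75th percentile over the 43379 spots other than controls subtracted. Outlier spots were left out, spots of a probe averaged, and 21 of 41174 probes lost. Accessions were matched to RefSeq names of GRCm38.p6, which named 26877 probes. The 22440 probes that were well above background on each array of 1 genotype or both were tested in R 4.3.3 with limma 3.58.1 (lmFit, then eBayes with no trend; two-sided p, Benjamini-Hochberg adjustment over every tested probe). Tables were made with Python 3.11.15 and pandas 2.3.3. Residual degrees of freedom were 2 and the prior 2.43. A gene with more than 1 probe was represented by the brightest on average. The script was tested on simulated data. Probe sequences were not used here, so cross-hybridisation among Ifitm genes was not checked.

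The members and gene lists were chosen with earlier results of these data known. Named were all Ifitm probes, Cbx3, the paralogues and neighbours. The other lists gave up to 4 members past the threshold or, with none, the 2 of smallest unadjusted p. To these came Dppa3, Pou5f1, Ddx4, Prdm1, Cdh5, Ptprc and Col1a1 as levels and the 5 genes nearest in pattern to each Ifitm gene. The rule of smallest p was not carried out for the leukocyte, stromal and erythroid lists. Some members, such as Postn, Isg15, Id1 and Id3, were named outside these rules. Alternatives were quantile scaling, the median of the probes that every array detected, spiked-in control RNA, normexp with an offset of 50 (on the median spot signal, as the mean is not among the columns), the deposited value table, other filters on dim probes, eBayes with a trend, a replicate block, the mean of both Ifitm2 probes and each array left out.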

Additional observations from a re-analysis of the deposited data

How the results depend on the processing

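No Ifitm difference passed the test under any of the alternatives run. Ifitm1 kept its direction throughout, from 0.81 to 1.88. Ifitm3 ranged from 0.01 to 0.79 and Ifitm2 from -0.052 to 0.61. Both low ends came from spiked-in control RNA, where the median of all probes is -0.61. The SEs there were 0.43 for Ifitm3 and 0.45 for Ifitm2, so neither value gives a direction. Under the other settings Ifitm2 lay between 0.38 and 0.61. The mean of its probes gave 0.55. With single arrays left out, Ifitm1 ranged from 0.83 to 1.88, Ifitm2 from 0.38 to 0.61 and Ifitm3 from 0.33 to 0.79. The contrast of Ifitm2 with Ifitm3 ranged from -0.40 to 0.28 and turned positive without wild-type replicate 2 or null replicate 1. Ifitm1 against Ifitm2 ranged from 0.22 to 1.50, and Ifitm1 against Ifitm3 from 0.50 to 1.10. The cause was not tested.

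A fit with the replicate block gave Ifitm1 1.35 (limma, adjusted p = 0.27), Ifitm2 0.50 and Ifitm3 0.56, none past the test. Deviations of same-numbered arrays correlated at 0.068 over the tested probes. With 2 pools per genotype this value cannot show whether the numbers pair the pools. Probes past the threshold numbered 2, against 13 with the block, 7 with a trend, 3 with quantile scaling, 146 with spiked-in control RNA, 1 with probes well above background on all 4 arrays, and 0 without a filter (limma, 1474 at an unadjusted p under 0.05) or with any array left out (limma, 716 to 5599).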
